A study of Caenorhabditis elegans with 5 samples.

Results

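The 6 genes described here act at the chromatin step of nuclear RNA interference (RNAi) in *Caenorhabditis elegans* and were measured in 5 mRNA libraries. They are *hrde-1* (sequence name C16C10.3), *nrde-1* (C14B1.6), *nrde-2* (T01E8.5), *nrde-3* (R04A9.2), *nrde-4* (F45E4.10) and *morc-1* (ZC155.3). They were selected by a rule on their names, set with earlier results of these data known, and they make up 6 of the 20167 genes in the expression table. All 6 were detected in all 5 libraries, and none was as much as 2-fold apart from wild type in any mutant. Of all gene models tested, only 4.91% to 6.33% per mutant were that far apart. *hrde-1* mRNA was the most abundant of the 6 in each library and was lowest in the *hrde-1* mutant, at 0.702 of the wild-type level. *nrde-4* had the largest fold between its highest and lowest library of the 6, 1.59-fold, from 22.1 to 35.0 RPKM. Of gene models of similar mean RPKM, 25.7% had a larger standard deviation on the log2 scale than *nrde-4*.

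In nuclear RNAi, an Argonaute protein loaded with a small interfering RNA (siRNA) enters the nucleus and finds nascent transcripts that match the siRNA. HRDE-1 is the Argonaute of this pathway in the germline and is required for the inheritance of silencing, and NRDE-3 is its counterpart in somatic cells. The Argonaute recruits NRDE-2, a conserved nuclear protein, and then NRDE-1 and NRDE-4 are needed at the target locus, where RNA polymerase II is inhibited and histone H3 lysine 9 (H3K9) is methylated. MORC-1 is a GHKL-type ATPase that compacts chromatin and acts downstream in the germline.

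Poly(A) RNA was sequenced from whole, synchronized young adult hermaphrodites grown at 19 °C on *E. coli* OP50, with 1 library for each genotype. The libraries came from N2 wild type, a *set-32* single mutant, a double mutant of *met-2* and *set-25*, a triple mutant of all 3 genes, and an *hrde-1* mutant. The alleles were ok1457 for *set-32*, n4256 for *met-2*, ok5021 for *set-25* and tm-1200 for *hrde-1*, each as spelled in the sample labels. The first 3 genes encode methyltransferases that act, or were tested for a role, in H3K9 methylation, and the study asked how the loss of these enzymes or of HRDE-1 changes silencing in the germline. Each mutant was set against wild type, and the triple mutant also against *set-32* and against the double mutant. With 1 library per genotype there is no replicate check and no p-value. Strains, cultures and libraries cannot be told apart, and the comparisons with wild type share the wild-type library. The plots name the double and triple mutants by their genes.

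The values are RPKM, read numbers divided by the length of the gene model and by library depth, so that levels of different genes can be compared per length. The steps between low values implied about 1840000 to 2920000 counted reads per library, and a level of 5 RPKM on a 1-kb model stood for 9.21 to 14.6 reads. Markers of germline, oocyte, sperm, muscle, intestine, hypodermis and neuron were present, with *spe-9*, a sperm gene, at 0 in *set-32* and *hrde-1*. The summed level of 5 sperm markers was 274 RPKM in *set-32* and 104 to 134 RPKM in the other 4 libraries. *met-2* mRNA stood at 12.6 and 9.45 RPKM in the libraries that carry its mutation, against 34.4 to 47.3 RPKM in the others.

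In the WBcel235 annotation, *hrde-1* lies on chromosome III from 4172337 to 4176159 on the minus strand, with 7 exons and an open reading frame of 1032 codons. *nrde-1* and *morc-1* are on the same chromosome, *nrde-1* from 3713463 to 3718750 on the plus strand and *morc-1* from 5203685 to 5206911 on the minus strand. *nrde-2* is on chromosome II from 10242596 to 10247638 on the minus strand, with 13 exons. *nrde-3* is on the X chromosome from 372235 to 376900 on the plus strand, with an open reading frame of 1057 codons close to that of *hrde-1* in length. *nrde-4* is on chromosome IV from 7646320 to 7654262 on the minus strand and is the only member with 2 gene models in the table. The longer model, of 785 codons, stands for the gene here, and the shorter one, of 780 codons, gave levels of 0.922 to 0.986 of it. *hrde-1* was marked by the authors as oocyte-enriched in its germline expression, and *morc-1* and the shorter *nrde-4* model as intrinsic to the germline. None of the 6 was on the authors' lists of germline nuclear RNAi targets.

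The oligonucleotide that the study listed for genotyping the *hrde-1* allele is shown because that allele defines one of the libraries. It lies in the *hrde-1* gene on chromosome III by its listed target, its position in the gene was not mapped here, and the same letters were listed for both primers of the pair. It is printed 5′ to 3′ in lower case, with no part singled out in capitals.
SG-386: ttcgtgtcgaagttgtctcg

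Of the Argonautes, *hrde-1* stood at 227.5 RPKM in wild type and 159.7 RPKM in *hrde-1*, and at 177.9, 233.9 and 204.0 RPKM in the single, double and triple methyltransferase mutants. Wild type and the double mutant were the high libraries, and *hrde-1* was the low one. In wild type 97.7% of all gene models had a lower RPKM. Among the 14 Argonaute genes examined, *hrde-1* came second in wild type, after *wago-1* at 331 RPKM, a germline Argonaute of the cytoplasm, and ahead of *csr-1* at 132.6 RPKM, the Argonaute that protects germline transcripts. In the *hrde-1* library it was again second of these, with *csr-1* at 139.2 RPKM.

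*nrde-3*, the somatic nuclear Argonaute, was the least abundant of the 6 genes in every library. It stood at 18.7 RPKM in wild type and 24.2 RPKM in *hrde-1*, and at 17.1, 22.4 and 20.1 RPKM in the single, double and triple methyltransferase mutants. The order of the libraries differed from that of *hrde-1*, with the *hrde-1* mutant at the top rather than at the bottom. The level of *hrde-1* was 12.2 times that of *nrde-3* in wild type, 10.1 to 10.4 times in the 3 methyltransferase mutants and 6.60 times in the *hrde-1* mutant. In whole animals, fewer cells of a type and less RNA per cell cannot be told apart for either gene.

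*nrde-2*, which links the Argonautes to the downstream factors, stood at 46.1 RPKM in wild type and 36.9 RPKM in *hrde-1*, and at 41.6, 49.0 and 52.3 RPKM in the single, double and triple methyltransferase mutants. It was second to *hrde-1* in abundance in 4 libraries, and its low library was again *hrde-1*. *nrde-1*, a factor that associates with chromatin and with nascent transcripts at silenced loci, stood at 28.3 RPKM in wild type and 34.1 RPKM in *hrde-1*, and at 24.5, 27.2 and 26.6 RPKM in the single, double and triple methyltransferase mutants. Its high library was the *hrde-1* mutant and its low one *set-32*. *nrde-4*, needed for NRDE-1 to reach chromatin, stood at 30.6 RPKM in wild type and 34.9 RPKM in *hrde-1*, and at 24.2, 35.0 and 22.1 RPKM in the single, double and triple methyltransferase mutants. The lowest levels of *nrde-4* were in the 2 libraries with the *set-32* allele. *nrde-1* and *nrde-4* share 99 and 91 exon bases with a gene on the other strand, and since the strand of counting is not stated, reads in those bases cannot be told apart.

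*morc-1*, the chromatin effector, had the most even levels. It stood at 39.2 RPKM in wild type and 40.8 RPKM in *hrde-1*, and at 34.3, 39.8 and 44.4 RPKM in the single, double and triple methyltransferase mutants. The highest of these was 1.29 times the lowest, against 1.39 to 1.59 times for the other 5 genes.

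**Figure D1:**
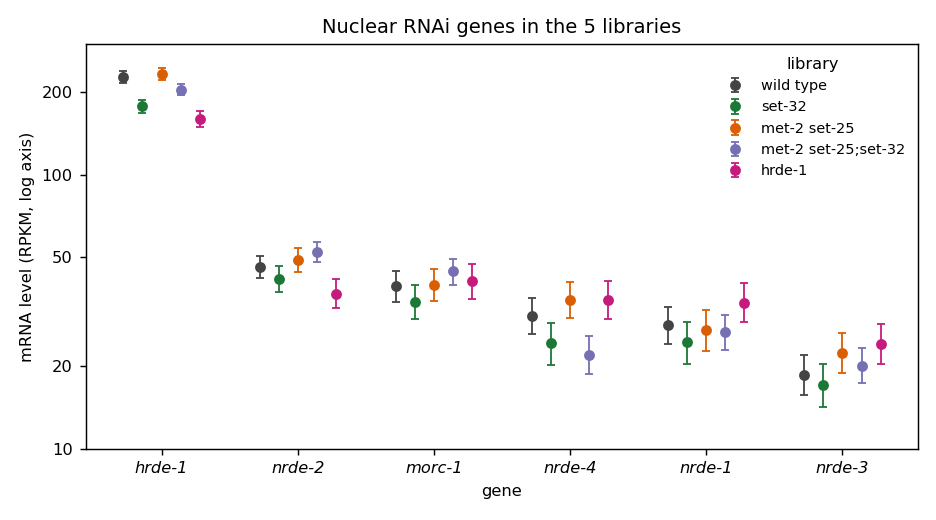
mRNA level (RPKM, log axis) of the 6 nuclear RNAi genes in the 5 libraries, 1 point per library, with bars for the 95% exact Poisson interval of the estimated reads. *hrde-1* lies between 159.7 and 233.9 RPKM, above the other 5 genes, which lie between 17.1 and 52.3 RPKM.

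*hrde-1* alone gave 58.3% of the summed RPKM of the 6 genes in wild type, 55.2% to 57.4% in the 3 methyltransferase mutants and 48.3% in *hrde-1*. It was 3.90 to 4.94 times as high as the next gene in each library. Below it, most neighbours in the order of levels had intervals that overlapped. In wild type the order was *nrde-2*, *morc-1*, *nrde-4*, *nrde-1* and *nrde-3*. Of these neighbours only *nrde-1* and *nrde-3* had intervals that did not overlap, at 1.52-fold. In the triple mutant and in *set-32* the neighbours without overlap were *morc-1* and *nrde-1*, at 1.67-fold and 1.4-fold. In the double mutant the intervals of all neighbours below *hrde-1* overlapped. In *hrde-1*, *morc-1* stood above *nrde-2* by 1.11-fold with overlapping intervals, the only library with that order. The intervals of *nrde-1* and *nrde-3* did not overlap there, at 1.41-fold. These intervals come from estimated reads, which are approximate, and they cover counting error only. Intervals of single levels can overlap where a ratio differs from 1 beyond counting error, and ratio intervals between genes were not computed.

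In the *hrde-1* mutant the levels of *hrde-1* and *nrde-2* mRNA were lower and that of *nrde-3* mRNA was higher than in wild type, all by less than 1.5-fold. *hrde-1* had a ratio of 0.702 (95% counting interval 0.647 to 0.761), the lowest ratio to wild type of any member in any mutant. The RPKM is an average over the whole gene model, so it does not show whether the sequence altered by the allele was transcribed. *nrde-2* had a ratio of 0.80 (0.683 to 0.935) and *nrde-3* a ratio of 1.30 (1.02 to 1.64). For the other 3 genes the interval included 1, with ratios of 1.2 for *nrde-1*, 1.14 for *nrde-4* and 1.04 for *morc-1*. None of the 6 passed 2-fold, where 6.23% of all models tested did, and none passed 1.5-fold, where 16.6% did. An interval that excluded 1 was found for 3 of 6 members, against 19.7% of all models. *hrde-1*, which is mutated in this library, is among those members. The median log2 ratio of the 6, *hrde-1* included, was 0.12, beside 0.01 over all models tested, and 2 were below 0. Sperm-class genes had a median of -0.41 in this library and the 5 oocyte markers summed to 2170 RPKM against 1801 RPKM in wild type, and their part in these values was not tested.

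In *set-32* all 6 genes were lower than in wild type, and none by as much as 1.5-fold. Below 0 on the log2 scale were 5475 of 10092 models tested, 585 of 689 oocyte-class genes and 598 of 782 intrinsic germline genes. *hrde-1* had a ratio of 0.782 (0.726 to 0.842) and *nrde-4* a ratio of 0.792 (0.624 to 0.997), whose interval ended just below 1. The ratios of *nrde-1* (0.865), *morc-1* (0.875), *nrde-2* (0.903) and *nrde-3* (0.918) had intervals that included 1. At 2-fold 6.33% of all models passed and at 1.5-fold 18.6%, and the intervals of 27.4% excluded 1, against 2 of 6 members. The median log2 ratio of the 6 was -0.19 beside -0.04 for all models tested. Oocyte-class genes had a median of -0.28, intrinsic germline genes of -0.22 and sperm-class genes of 0.46, while the 6 members ranged from -0.35 to -0.12. Relative to the median of the intrinsic class, only *hrde-1* (-0.13) and *nrde-4* (-0.10) stayed below 0, and *nrde-1*, *nrde-2*, *nrde-3* and *morc-1* were at 0.02 to 0.10. The 5 germline markers summed to 1094 RPKM against 1230 RPKM in wild type and the 5 oocyte markers to 1492 RPKM against 1801 RPKM, while 4 intestine markers summed to 3710 RPKM against 2656 RPKM. Their part in the lower levels was not tested.

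In the double mutant no member's counting interval excluded 1, where 16.4% of all models had one that did. *hrde-1* had a ratio of 1.03 (0.959 to 1.10) and *morc-1* a ratio of 1.01 (0.839 to 1.22). The farthest from 1 were *nrde-3* at 1.2 (0.951 to 1.52) and *nrde-4* at 1.15 (0.923 to 1.42). *nrde-2* was at 1.06 and *nrde-1*, the only member below 1, at 0.958, though *hrde-1* and *morc-1* were just below 0 on the log2 scale, at -0.01 and -0.03, after centring all models on 0. At 2-fold 4.91% of all models passed, at 1.5-fold 14.5%, and no member did. The upper bounds leave room for a level up to 1.52 times that of wild type for *nrde-3*, from counting error alone.

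**Figure D2:**
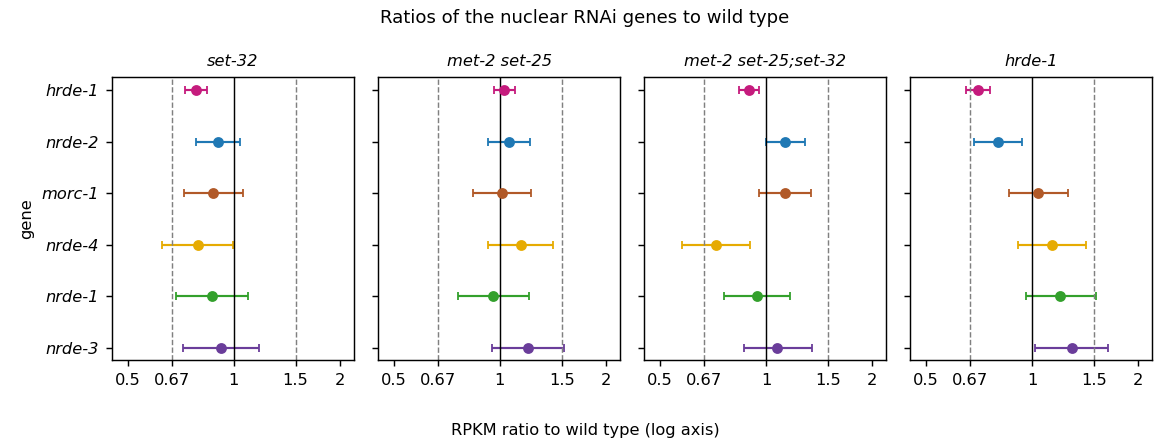
RPKM ratio of each nuclear RNAi gene to wild type (log axis) in the 4 mutants, 1 panel per mutant, with bars for the 95% counting interval, a solid line at 1 and dashed lines at 1.5-fold in either direction. The ratios lie between 0.702 (*hrde-1* in *hrde-1*) and 1.30 (*nrde-3* in *hrde-1*), and 7 of 24 intervals exclude 1. *hrde-1* in its own mutant is among the 7, and 16.4% to 27.4% of all models per mutant had such an interval.

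In the triple mutant 3 members were lower and 3 higher than in wild type. The ratio was 0.721 (0.576 to 0.899) for *nrde-4* and 0.896 (0.839 to 0.958) for *hrde-1*, and these 2 intervals excluded 1, where 25.9% of all models did. *nrde-2* and *morc-1* were both at 1.13, *nrde-3* was at 1.08 and *nrde-1* at 0.940, with intervals that included 1. No member passed 2-fold (5.46% of all models) or 1.5-fold (15.5% of all models). The directions of *hrde-1* and *nrde-1* turned with the scaling. Their log2 ratios were -0.16 and -0.09 as deposited and 0.03 and 0.10 relative to the median of the intrinsic germline class, which was -0.19, so that 1 member, *nrde-4*, stayed below 0. The oocyte markers summed to 1550 RPKM and the intestine markers to 3296 RPKM in this library, and their part in these values was not tested.

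The triple mutant differs from the double mutant by the *set-32* allele, and of the 6 comparisons this one held the only member past 1.5-fold. *nrde-4* was at 22.1 RPKM in the triple and 35.0 RPKM in the double mutant, a ratio of 0.629 (0.502 to 0.786). This is 1 of 6 members, while 6.76% of all models tested were lower by 1.5-fold and 12.7% were apart by it in either direction. On the log2 scale with a pseudocount of 1 RPKM the difference was -0.64, and it was -0.57 with a pseudocount of 5 RPKM or after centring all models on 0 and -0.49 relative to the intrinsic germline class, all short of the 1.5-fold rule. *hrde-1* had a ratio of 0.872 (0.814 to 0.933) in this pair. Its log2 ratio was -0.20, beside medians of -0.08 over all models tested, -0.21 for the oocyte class and -0.15 for the intrinsic class. The other 4 had intervals that included 1, and no member passed 2-fold, where 3.9% of all models did. The intervals of 2 of 6 members excluded 1, against 19.8% of all models.

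The triple mutant differs from *set-32* by the *met-2* and *set-25* alleles, and here 5 of 6 members were higher in the triple mutant. Above 0 on the log2 scale were 5231 of 10225 models tested, 408 of 689 oocyte-class genes and 436 of 782 intrinsic germline genes. The ratio was 1.29 (1.08 to 1.55) for *morc-1*, 1.26 (1.10 to 1.44) for *nrde-2* and 1.15 (1.07 to 1.23) for *hrde-1*. These 3 of 6 intervals excluded 1, against 17.8% of all models. *nrde-4* was the member below 1, at 0.910 (0.716 to 1.16). No member passed 2-fold or 1.5-fold, where 5.33% and 14.4% of all models did. The comparisons share the triple mutant library, so its values enter both.

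**Figure D3:**
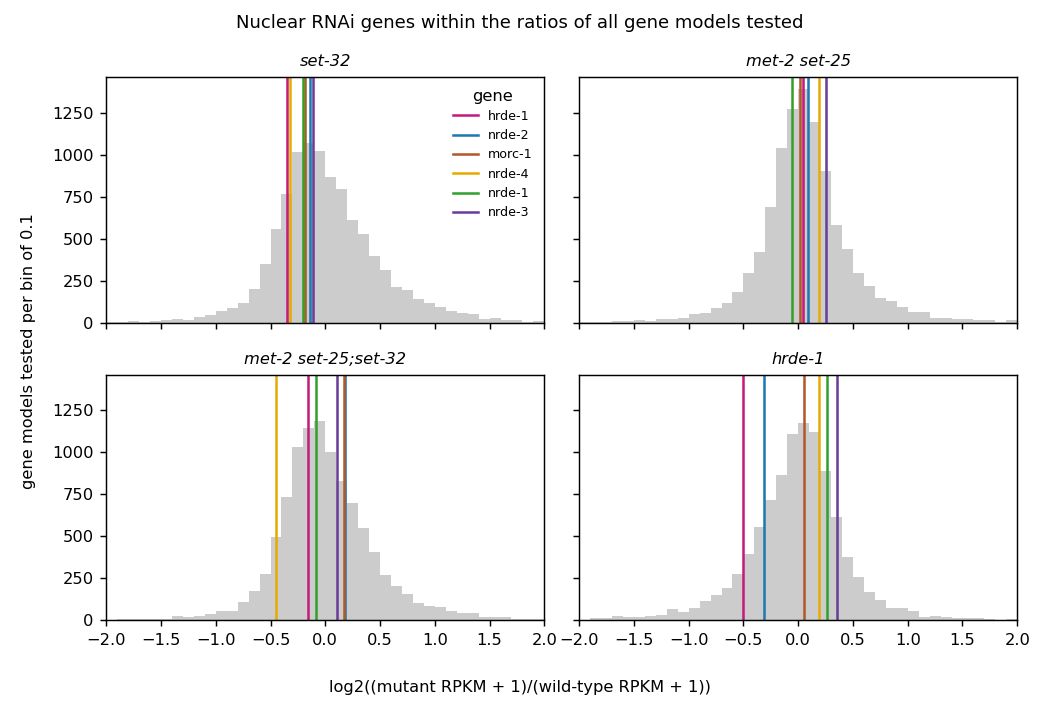
Numbers of gene models tested (grey, bins of 0.1) by log2((mutant RPKM + 1)/(wild-type RPKM + 1)) in the 4 mutants, with a coloured line at the value of each nuclear RNAi gene. All lines lie between -0.51 (*hrde-1* in *hrde-1*) and 0.36 (*nrde-3* in *hrde-1*). In *set-32* all 6 lie below 0, as do 5475 of 10092 models tested.

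Across the 5 libraries the 6 genes did not move together. The variation of *hrde-1* (SD 0.23 on the log2 scale) was larger than the median of 0.15 among 277 gene models of similar mean RPKM, and 20.9% of those models varied more. That SD includes the library in which *hrde-1* is mutated, where its level was lowest, and it was not computed without that library. *nrde-4* had an SD of 0.30 against a median of 0.22 for its like, of which 25.7% varied more. *morc-1* had an SD of 0.13 and 80.6% of models of its level varied more. For *nrde-1*, *nrde-2* and *nrde-3* that share was 70.9%, 51.1% and 67.1%. Of the 10 pairs of libraries, *nrde-4* was at least 1.5-fold apart in 2, and the other 5 genes in none.

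The likeness of 2 profiles was measured as the distance between log2(RPKM + 1) values over the 5 libraries after removing each gene's mean. The closest members to each other were *nrde-1* and *nrde-3* (distance 0.24), both with their high library in *hrde-1*, and *hrde-1* and *nrde-2* (0.27), both with their low library there. The farthest were *nrde-2* and *nrde-4* (0.83). All distances of *hrde-1* include the library that carries its own mutation. Among gene models that averaged 10 RPKM or more, the profiles most like *hrde-1* were those of *rib-2* (0.09), a glycosyltransferase of heparan sulfate synthesis, *faah-2* (0.11), a fatty acid amide hydrolase, and Y56A3A.31 (0.11). The nearest to *nrde-2* were Y18H1A.2, *acl-4* and *calu-1*, at distances of 0.06 each, the last of them encoding a calumenin. For *nrde-1* they were *ham-3*, a subunit of a chromatin remodelling complex, and *nmrk-1*, a nicotinamide riboside kinase, both at 0.02, and *ril-2* at 0.04. For *nrde-3* they were *pssy-2*, a phosphatidylserine synthase, at 0.03, *cdc-42*, a small GTPase of cell polarity, at 0.05, and *ima-3*, an importin alpha, at 0.06. For *nrde-4* they were *mzt-1*, a component of microtubule nucleation, at 0.04, and *him-5*, a factor in meiotic crossover formation on the X chromosome, and W02D7.6, both at 0.05. For *morc-1* they were F28C1.3 at 0.02, *aldo-2*, an aldolase, at 0.06 and *ccf-1*, a deadenylase, at 0.07. With 5 libraries such profiles are common, and 127 models lay within 0.25 of *hrde-1*, 214 of *nrde-4* and 884 of *nrde-1*.

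The genes upstream and beside these 6 were counted in 4 lists with 59 symbols, of which 58 were matched to the table. Of the 24 genes of small RNA production, such as the RNA-dependent RNA polymerase genes *ego-1* and *rrf-1*, 20 were below 0 in *set-32*, with a median log2 ratio of -0.36 beside -0.04 over all models tested. Over all models tested, 5475 of 10092 were below 0, as were 598 of 782 intrinsic germline genes and 585 of 689 oocyte-class genes. None of the 24 was 1.5-fold apart there on the log2 scale with a pseudocount of 1 RPKM, where 18.6% of all models were. In *hrde-1* 16 of the 24 were above 0, with 5138 of 9941 over all models, and their median was 0.13 beside 0.01. *mut-16*, which organizes the foci where siRNAs are amplified, stood at 41.0 RPKM in wild type and 27.3 RPKM in *set-32*, a log2 ratio of -0.57 on that scale. Without a pseudocount its ratio was 0.666 (0.556 to 0.801) and that of *mut-14* 0.661 (0.501 to 0.874), both just past 1.5-fold.

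Single genes of these lists passed a rule of size. *sid-1*, a channel for double-stranded RNA, stood at 21.4 RPKM in wild type and 12.4 RPKM in the double mutant, a ratio of 0.581 (0.424 to 0.803), and was at 24.3 to 30.5 RPKM in the other 3 libraries. *eri-5*, a partner of Dicer in endogenous RNAi, stood at 15.2 RPKM in wild type and 27.7 RPKM in *hrde-1*, a ratio of 1.82 (1.29 to 2.58). These 2 were past 1.5-fold and not past 2-fold, and each is 1 of 24, where 14.5% of all models in the double mutant and 16.6% in *hrde-1* passed 1.5-fold.

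Among 17 matched Argonautes and granule factors, *znfx-1*, a helicase required for RNAi inheritance, was past 1.5-fold in *set-32*, at 11.5 RPKM against 18.5 RPKM in wild type, a ratio of 0.625 (0.518 to 0.747). It was 1 of 17, where 18.6% of all models passed. *alg-4*, an Argonaute of spermatogenesis, was low throughout, at 2.09 to 5.11 RPKM. Of 4 nuclear partners, *enri-2*, whose protein binds nuclear Argonautes, stood at 17.0 RPKM in wild type and 13.5 RPKM in *hrde-1*, and at 4.14, 12.5 and 10 RPKM in the single, double and triple methyltransferase mutants. Its ratio in *set-32* was 0.244 (0.0826 to 0.605), the only one of the 4 lists past 2-fold against wild type in a library without a mutation in the gene itself, where 6.33% of all models passed. In the triple mutant it was past 1.5-fold, with a ratio of 0.588 (0.310 to 1.10), where 15.5% of all models passed. *emb-4*, a helicase-like protein that works with HRDE-1, had a ratio of 0.820 (0.718 to 0.938) in *set-32*, and its ratio was 1.21 (1.07 to 1.37) in *hrde-1* and 1.16 (1.03 to 1.31) in the double mutant. Of 13 chromatin factors, 12 were above 0 in *hrde-1* and the median was 0.25, beside 5138 of 9941 and 0.01 over all models and 403 of 689 and 0.06 for the oocyte class. None of the 13 was 1.5-fold apart there, where 16.6% of all models were. *met-2*, *set-25* and *set-32* were left out of the counts in the libraries that carry their mutation, and *set-32* mRNA stood at 8.15 and 5.65 RPKM in the 2 libraries with its mutation against 12.3 to 14.5 RPKM in the others.

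**Figure D4:**
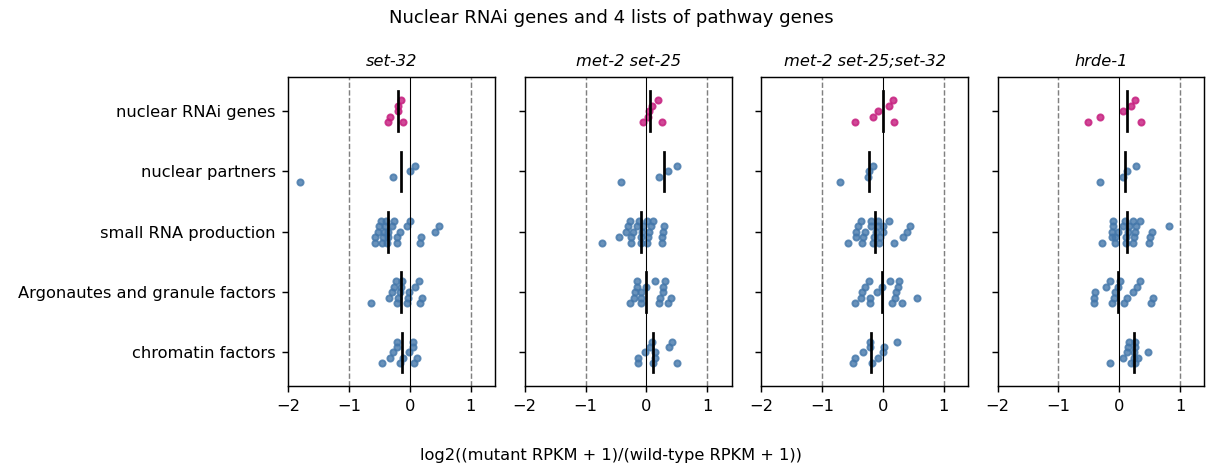
log2((mutant RPKM + 1)/(wild-type RPKM + 1)) of the 6 nuclear RNAi genes and of 4 lists of pathway genes in the 4 mutants, 1 point per gene, with a black bar at each median, a solid line at 0 and dashed lines at 2-fold in either direction. The medians of the 6 genes are -0.19, 0.06, 0.01 and 0.12, and the point past -1 in *set-32* is *enri-2*. The last of these medians includes *hrde-1* in its own mutant.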

How the data were processed

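Per the study's methods, 50-nt reads of poly(A)-selected RNA were aligned by the authors to an older genome release with Bowtie 0.12.7, keeping perfect alignments and dividing reads with several alignments among them. The deposited table gives RPKM for 20911 gene models with 2 decimals, and the strand of counting is not stated. Its columns were matched to the samples through the study's list of libraries, and all columns of expression values were used. Models were matched by sequence name to WBcel235 (Ensembl release 115) for 97.1% of models. Coordinates are of that build, which may differ from the build of the files, and no genome sequence was used here.

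Log2 ratios and calls used log2((RPKM + 1)/(RPKM + 1)), and ratios printed with an interval are of RPKM with no pseudocount. A model was tested when the higher of both libraries had at least 5 RPKM and was called at 2-fold or, beside it, 1.5-fold, which are rules of size and not tests. The value of 1 read in RPKM was inferred per library from step sizes among values of up to 6.5 reads, of which 46.4% to 50.3% were whole within 0.1 (20% by chance). From the estimated reads, 95% intervals were computed (exact Poisson for levels, Clopper-Pearson for ratios), which cover counting error only. Genes named were the 6 members, for each the 3 models with the nearest profile, their neighbours and overlapping genes, the 2 members of each pathway list with the largest mean absolute log2 ratio over the 4 mutants, and the targeted genes. *ego-1*, *rrf-1*, *mut-14* and *mut-16* and the other Argonautes, named as examples or for scale, fall outside this rule and were chosen after their values were seen. The members and lists were chosen with earlier results of these data known. One pathway symbol (*cde-1*) and one hypodermis marker (*col-19*) were not matched. Alternatives were other pseudocounts and filters, other scalings, the median of the other 4 libraries as reference and the shorter *nrde-4* model, the last chosen after seeing the data. Scripts were tested on simulated data. Python 3.11.15, pandas 2.3.3 and scipy 1.17.1 were used.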

Additional observations from a re-analysis of the deposited data

How the results depend on the processing

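No member was at least 2-fold apart in any comparison under any pseudocount, filter or scaling tried, or in any mutant against the median of the other 4 libraries, and the shorter *nrde-4* model, added after seeing the data, gave the same counts. The 1 member past 1.5-fold between the triple mutant and the double mutant (*nrde-4*) became 0 with a pseudocount of 5 RPKM (log2 ratio -0.57), after rescaling to a median of 0 (-0.57) and relative to the intrinsic germline class (-0.49). The 1 pathway gene past 2-fold in *set-32* (*enri-2*) became 0 with a filter of at least 20 RPKM, since its higher value is below that, an alternative added after seeing the data. Of 36 member ratios, 8 changed sign relative to the intrinsic class and 3 after rescaling, and 3 of 24 changed sign against the median of the other 4 libraries. For *hrde-1*, that reference gave log2 ratios of 0.29 in the double mutant and 0.01 in the triple mutant, and the intrinsic class gave -0.05 for the triple against the double mutant. A change of the pseudocount or filter changed no sign. No paired analysis was possible because each genotype had 1 library, and for the same reason no library could be left out of a comparison of genotypes. The SDs over the 5 libraries and the profile distances were not computed with a library left out. The depth of each library limits what could be seen, and differences within the counting intervals were not detectable.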

Other observations

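Genes beside or across from the 6 members were read for their own values. Upstream of *nrde-1* on the same strand, 114 bases away, lies *alkb-8*, at 28.6 RPKM in wild type and 22.5 in *hrde-1*, where *nrde-1* was at 34.1. Downstream of *nrde-2* on its strand, 105 bases away, lies *mrps-14*, a gene of the mitochondrial ribosome, at 75.1 RPKM in wild type and 81.1 to 111.3 RPKM in the mutants, with 97.6 RPKM in *hrde-1*, where *nrde-2* was at 36.9. Downstream of *nrde-4* on its strand, 100 bases away, lies *hmg-5*, at 110.4 RPKM in wild type and 80.4 to 91.7 RPKM in the mutants, so its high library was not that of *nrde-4*. C16C10.4, on the strand opposite to *hrde-1* and 113 bases from it, ranged from 112.9 to 126.5 RPKM and was at 113.1 in *hrde-1*.

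Among the members, *nrde-1* and *nrde-4* overlap a gene on the other strand. C14B1.8 shares 99 exon bases with *nrde-1* and stood at 96.9 RPKM in wild type and 53.4 to 65.1 RPKM in the mutants, while *cima-1* shares 91 exon bases with *nrde-4* and stood at 2.63 to 7.58 RPKM. Since the strand of counting is not stated, reads in the shared bases cannot be assigned to one gene of a pair, and their part in the values of *nrde-1* and *nrde-4* was not tested.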
